A study of Mus musculus with 4 samples.

Results

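The 8 genes described here make, move, break down and sense gamma-aminobutyric acid (GABA): *Gad1*, *Gad2*, *Slc32a1*, *Slc6a11*, *Slc6a13*, *Abat*, *Gabbr1* and *Gabbr2*. They were taken by name from the 23420 gene symbols counted in each sample of mouse prefrontal cortex (PFC) by a rule that uses names only. These genes, and the marker and pathway lists below, were chosen with earlier results of these data known. Counts over them are therefore given as description. All 8 were found and all 8 passed the low-count filter that left 16232 genes for testing. They were sorted by textbook knowledge into 5 neuronal genes (*Gad1*, *Gad2*, *Slc32a1*, *Gabbr1*, *Gabbr2*), 2 glial or other non-neuronal genes (*Slc6a11*, *Slc6a13*) and *Abat*, which neurons and glia share.

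RNA was sequenced from PFC punches with GFP fluorescence, taken from C57BL6/J mice after bilateral injection of a GFP-tagged adeno-associated virus (AAV) into medial PFC. In 2 samples the virus carried a short hairpin RNA against *Ash1L*, a histone methyltransferase gene, and in 2 control samples it did not (the labels describe a GFP AAV9 and the study a scrambled shRNA AAV). The study states injection at 5 weeks of age and tissue of 3 mice pooled per sample, whereas the labels give an age of 6 to 8 weeks for all 4 samples and the series description names 3 mice for the shRNA and 2 for the control. A single hairpin under the U6 promoter, which is active in any infected cell, was used in all treated mice, and the RNA came from whole lysate, so that infected neurons, infected glia and uninfected cells were measured together.

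GABA is the main inhibitory transmitter of the cortex. Interneurons make it from glutamate with the enzymes GAD67 (*Gad1*) and GAD65 (*Gad2*) and load it into vesicles with the transporter VGAT (*Slc32a1*). After release, GABA is taken up by plasma membrane transporters, of which GAT-3 (*Slc6a11*) sits mainly on astrocyte processes and GAT-2 (*Slc6a13*) mainly on leptomeningeal and vascular cells and some astrocytes, and it is broken down in mitochondria by GABA transaminase (*Abat*). Outside the synapse it also acts on the GABA-B receptor, an obligate heterodimer in which GABBR1 binds GABA and GABBR2 couples to G proteins that open potassium channels and restrain transmitter release.

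Total counts ran from 14251190 to 35764874 per sample. *Ash1l*, the targeted gene, was at 245 and 290 CPM (counts relative to the scaled total of each library) in the controls and at 216 and 138 CPM in the *Ash1L* shRNA samples, so both treated samples lay below both controls and the second lay lowest, at 51.4% of the control mean against 80.6% in the first (log2 fold change -0.60 ± 0.22 SE, DOWN, adjusted p = 0.275 in edgeR). CPM values were computed from library totals scaled by the TMM factors of edgeR, fold changes are *Ash1L* shRNA over control on the log2 scale, and DOWN or UP means P under 0.05 before adjustment with at least a 1.2-fold change. Over all genes tested, 8.28% were DOWN and 8.61% UP, and 26.8% had both *Ash1L* shRNA samples below both controls and 26.5% above. The verbs rose and fell refer to these unadjusted calls, since only 1 gene of the whole table had an adjusted p under 0.05.

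Sequence upstream of the 2 enzyme genes and of the 2 uptake transporter genes is shown first, because the members of each pair do the same reaction and are compared below. *Gad1* (ENSMUSG00000070880, chr2:70553072-70602014, plus strand) and *Gad2* (ENSMUSG00000026787, chr2:22622205-22693874, plus strand) lie far apart on the same chromosome, as do *Slc6a11* (ENSMUSG00000030307, chr6:114131241-114249952, plus strand) and *Slc6a13* (ENSMUSG00000030108, chr6:121300227-121337733, plus strand), all in the GRCm38 (mm10) build used by the study. The stretch from 250 to 123 bases upstream of a RefSeq start of each gene, which holds no annotated exon, reads as follows in GRCm38.p6 from 5′ to 3′, at chr2:70561879-70562006 for *Gad1* (whose RefSeq start lies inside the gene span given above), chr2:22622077-22622204 for *Gad2*, chr6:114130991-114131118 for *Slc6a11* and chr6:121300038-121300165 for the first of the listed starts of *Slc6a13*. Capitals mark matches, on either strand, to the letters TATAAA of a TATA box, to CCAAT of the box of that name or to GGGCGG of a GC box.
Gad1: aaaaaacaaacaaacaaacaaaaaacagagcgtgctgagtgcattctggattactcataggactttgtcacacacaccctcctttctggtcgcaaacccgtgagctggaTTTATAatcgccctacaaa
Gad2: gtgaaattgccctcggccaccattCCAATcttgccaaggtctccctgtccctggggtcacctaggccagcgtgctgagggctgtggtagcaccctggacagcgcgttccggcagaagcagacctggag
Slc6a11: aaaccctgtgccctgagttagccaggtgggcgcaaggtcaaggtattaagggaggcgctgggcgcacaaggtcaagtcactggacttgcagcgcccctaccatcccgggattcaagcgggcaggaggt
Slc6a13: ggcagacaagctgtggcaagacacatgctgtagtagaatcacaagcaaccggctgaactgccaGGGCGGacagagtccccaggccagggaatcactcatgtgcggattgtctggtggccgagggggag
The *Gad1* stretch was 42.2% G or C and carried 1 match to TATAAA, found in 6.38% of 32851 RefSeq promoter stretches of this length and place. The *Gad2* stretch was 62.5% G or C with 1 match to CCAAT, found in 17.2% of them. That of *Slc6a11* was 60.9% G or C with no match, and that of *Slc6a13* was 59.4% with 1 match to GGGCGG, found in 13.8%. The CpG counts of these stretches were 4, 5, 6 and 4, against a median of 2 over all promoters. The stretches at the other listed starts of *Slc6a13* had 1 CpG each and no match to any of these motifs. The letters are given as description, and no binding or methylation was analysed here.

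Of the 8 genes, the GABA uptake transporter genes *Slc6a11* and *Slc6a13* and the receptor gene *Gabbr2* fell, and none rose. The transporters fell by a factor of 1.88 and 1.85 and *Gabbr2* by a factor of 1.27. The 3 DOWN genes of 8 stood beside 8.28% of all genes DOWN, and the 0 UP genes beside 8.61% UP, with no UP member in DESeq2 either and 3 members at an unadjusted P under 0.05 in edgeR, the 3 that fell. *Gad1* joined them in lying lower in both treated samples, which made 4 of 8 genes beside 26.8% of all genes, and no member lay higher in both, beside 26.5%. In the other 4 members the groups overlapped. The median log2 fold change was -0.22 over the 8 genes and -0.0027 over all genes tested. No member had an adjusted p under 0.05 in the main edgeR fit of all 4 samples.

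**Figure D1:**
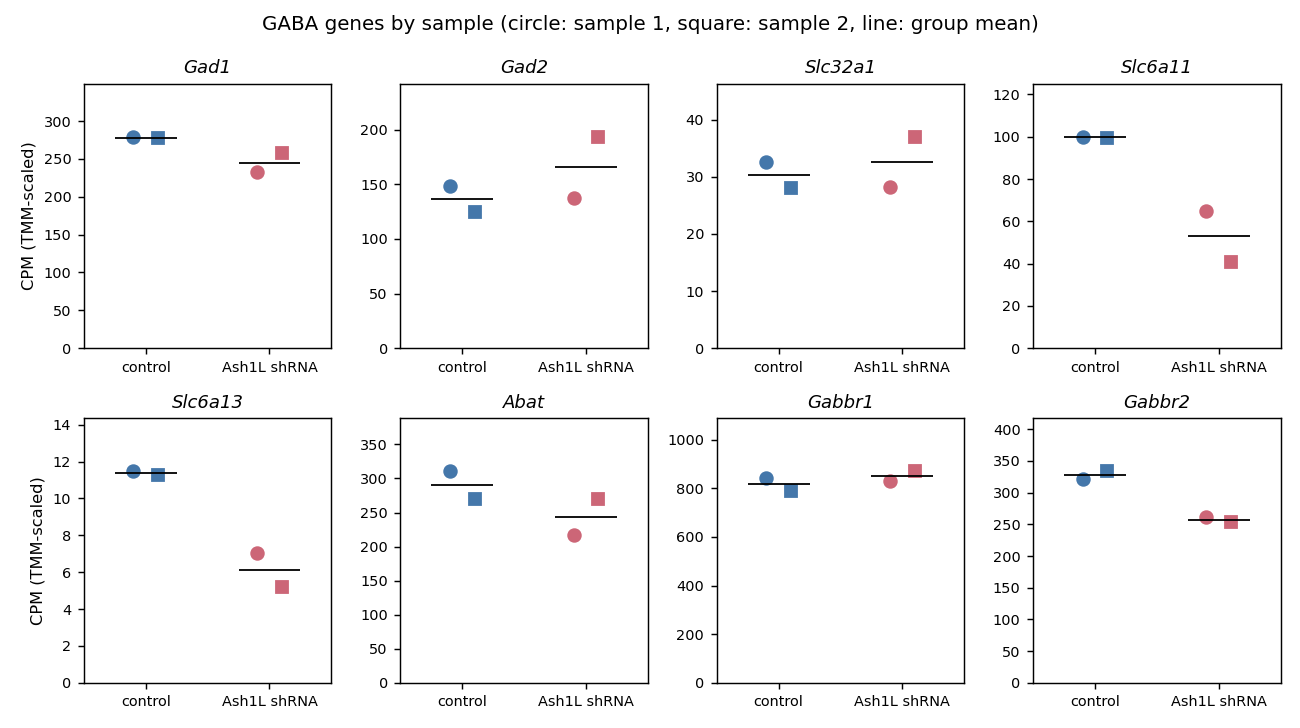
TMM-scaled CPM (y axes, each from 0) of the 8 genes in the 2 control and the 2 *Ash1L* shRNA samples; circles are sample 1, squares sample 2 and lines the group means. The groups are apart for *Slc6a11*, *Slc6a13*, *Gabbr2* and *Gad1* and overlap for the other 4.

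Synthesis of GABA was measured through *Gad1* and *Gad2*. *Gad1* was at 280 and 277 CPM in the controls and at 232 and 258 CPM in the *Ash1L* shRNA samples. Both treated samples lay below the nearly equal controls, with the first the lower, at 83.4% of the control mean. The mean was 278 ± 1.83 CPM (SD, n = 2) in controls and 245 ± 17.9 CPM (SD, n = 2) after the shRNA, and the log2 fold change of -0.18 ± 0.11 (SE) did not pass the test (adjusted p = 0.429 in edgeR). *Gad2* was at 149 and 125 CPM in the controls and at 138 and 194 CPM in the treated samples. The first treated sample fell between the controls, and the second stood above the other 3, at 142% of the control mean. Its log2 fold change was 0.28 ± 0.19 (SE, adjusted p = 0.472 in edgeR), not called. That estimate hung on the second treated sample, since it was 0.50 without the first treated sample and 0.01 without the second.

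The 2 enzyme genes thus leaned in opposite directions in the second treated sample. Their ratio compares genes within a library and does not depend on scaling. *Gad1* counts were 1.88 and 2.22 times the *Gad2* counts in the controls and 1.68 and 1.33 times in the *Ash1L* shRNA samples. Expressed as a share of the counts of both genes, *Gad1* took 65.3% (95% exact binomial interval 64.1 to 66.5) and 68.9% (68.1 to 69.7) in the controls. In the treated samples the share was 62.8% (61.8 to 63.7) and 57.1% (56.0 to 58.1). Both treated samples lay below both controls, and the intervals, which cover counting error only, did not touch between groups. The log2 ratio differed by -0.45, with an exact two-sided permutation p of 0.33, the smallest that 2 against 2 samples can give, so no ratio in this design can reach 0.05. Adjusted over the 6 ratios computed, that value becomes 0.50, and the same holds for each ratio below with a p of 0.33 by the exact test.

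Vesicle loading was measured through *Slc32a1* (chr2:158610767-158615748, plus strand), which marks GABA-releasing terminals. It was at 32.7 and 28.1 CPM in the controls and at 28.2 and 37.1 CPM in the treated samples. As for *Gad2*, the first treated sample lay between the controls, next to the lower, and the second was the highest of the 4. The log2 fold change was 0.11 ± 0.18 (SE, adjusted p = 0.782 in edgeR), not called, and it turned to -0.10 without the second treated sample and to -0.01 without the second control. Of its 2797 exonic bases, 697 (24.9%) overlap the antisense gene *Gm14205*, whose symbol is not among those counted, and with no strand setting of the counting stated, reads of either gene could have been counted here. The *Gad2* to *Slc32a1* ratio was 4.55 and 4.46 in the controls and 4.89 and 5.23 in the treated samples, higher in both by 0.17 on the log2 scale (exact permutation p = 0.33).

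Uptake held the largest fold changes among the 8 genes. *Slc6a11* was at 100.1 and 99.4 CPM in the controls and at 65.1 and 40.6 CPM in the *Ash1L* shRNA samples. The controls were nearly equal, and both treated samples lay well below them, the second at 40.7% of the control mean and the first at 65.2%. The mean dropped from 99.7 ± 0.512 CPM (SD, n = 2) to 52.8 ± 17.3 CPM (SD, n = 2), a log2 fold change of -0.91 ± 0.22 (SE, DOWN, adjusted p = 0.253 in edgeR), and 1.90% of all genes tested had a lower one. *Slc6a11* was DOWN with each of the 4 samples left out, at -1.30 to -0.61. Its adjusted p was 0.0103 in DESeq2 and ran from 0.0017 to 0.870 over the 13 alternatives.

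*Slc6a13* was counted far less deeply, at 162 and 396 counts in the controls and at 193 and 108 counts in the treated samples. Scaled by depth these were 11.5, 11.3, 7.05 and 5.21 CPM in that order. The picture was that of *Slc6a11*: nearly equal controls, both treated samples below them, and the second the lowest. The log2 fold change was -0.89 ± 0.23 (SE, DOWN, adjusted p = 0.253 in edgeR), the gene was DOWN with each sample left out at -1.13 to -0.69, and its adjusted p over the alternatives ran from 0.0177 to 0.870.

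The proportion of the 2 transporter genes overlapped between the groups. *Slc6a11* counts were 8.72 and 8.80 times the *Slc6a13* counts in the controls and 9.23 and 7.80 times in the treated samples. *Slc6a11* took 89.7% (88.1 to 91.2) and 89.8% (88.8 to 90.7) of the joint counts in the controls, and 90.2% (88.8 to 91.5) and 88.6% (86.4 to 90.6) in the treated samples. The log2 ratio differed by -0.05 (exact permutation p = 1), which at 2 samples a group does not show that the genes moved alike. Against *Gad1*, *Slc6a11* was at 0.358 and 0.359 counts per *Gad1* count in the controls and at 0.280 and 0.158 in the treated samples, lower in both, a difference of -0.77 on the log2 scale (exact permutation p = 0.33).

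Breakdown was measured through *Abat* (chr16:8513429-8621568, plus strand). It was at 310.5 and 269.5 CPM in the controls and at 217 and 270.2 CPM in the treated samples. The first treated sample was the lowest of the 4, and the second matched the lower control, so that the groups overlapped. The log2 fold change was -0.25 ± 0.15 (SE, adjusted p = 0.417 in edgeR), not called. Without the second treated sample it was -0.41. *Gad1* and *Abat*, the genes at the start and the end of the GABA cycle, were counted at ratios of 0.901 and 1.03 in the controls and of 1.07 and 0.953 in the treated samples, and these overlapped.

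Of the GABA-B receptor subunit genes, *Gabbr2* was called and *Gabbr1* was not. *Gabbr2* (ENSMUSG00000039809, chr4:46662305-46991873, minus strand) was at 322 and 334 CPM in the controls and at 261 and 254 CPM in the *Ash1L* shRNA samples. Each group was tight, and the treated samples, at 79.7% and 77.4% of the control mean, lay well apart from the controls. The log2 fold change was -0.35 ± 0.11 (SE, DOWN, adjusted p = 0.260 in edgeR). The call rested on both controls, since it was lost without the first (-0.36, adjusted p = 0.560 in edgeR) and without the second (-0.33, adjusted p = 0.870 in edgeR), with little change in the fold change itself.

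*Gabbr1* (ENSMUSG00000024462, chr17:37045966-37075067, plus strand) was at 841 and 790 CPM in the controls and at 829 and 870 CPM in the treated samples. The groups overlapped, and the log2 fold change was 0.06 ± 0.11 (SE, adjusted p = 0.817 in edgeR). *Gabbr1* counts were 2.61 and 2.37 times the *Gabbr2* counts in the controls and 3.17 and 3.43 times in the treated samples. The share of *Gabbr1* in the counts of both subunits was 72.3% (71.6 to 73.0) and 70.3% (69.9 to 70.8) in the controls and 76.0% (75.5 to 76.5) and 77.4% (76.9 to 78.0) in the treated samples. Both treated samples lay above both controls, by 0.41 on the log2 scale (exact permutation p = 0.33).

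**Figure D2:**
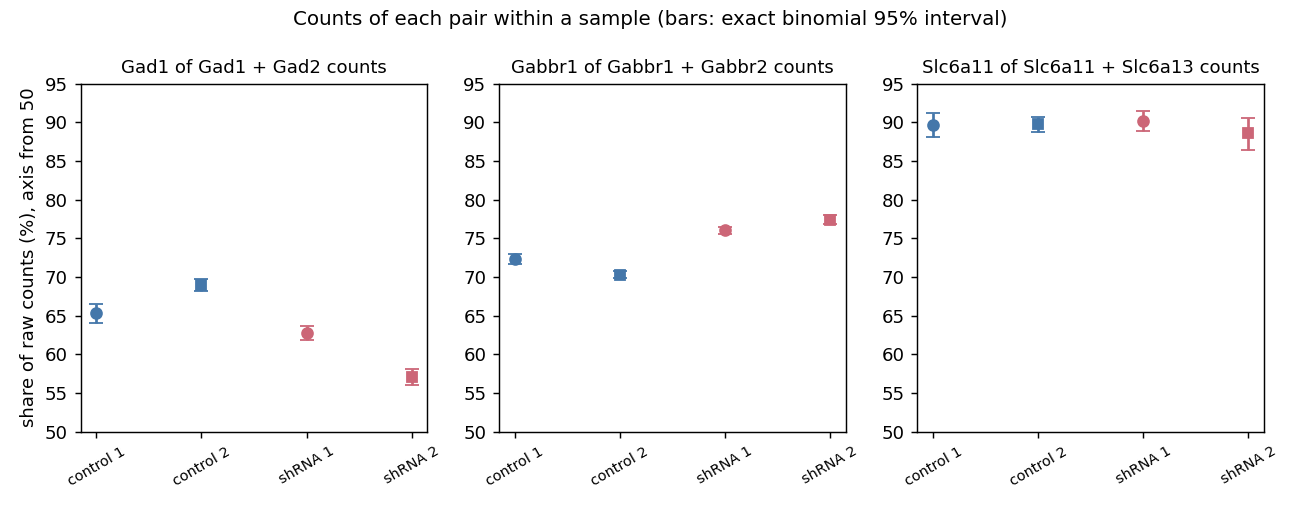
Share (%) that the first gene takes of the raw counts of a pair, by sample, with exact binomial 95% intervals for counting error as bars and the axis starting at 50. *Gad1* takes less of the *Gad1* and *Gad2* counts in both *Ash1L* shRNA samples (62.8 and 57.1%) than in the controls, *Gabbr1* takes more of the receptor counts (76.0 and 77.4%), and the share of *Slc6a11* overlaps between groups.

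Per exonic length, which allows levels of different genes to be compared, the order in the controls ran from *Gabbr1* at 105 ± 4.61 RPKM (CPM divided by the exonic length in kilobases; SD, n = 2) through *Gabbr2* at 49.0 ± 1.24, *Abat* at 37.4 ± 3.74, *Gad1* at 36.4 ± 0.240, *Gad2* at 23.3 ± 2.84, *Slc6a11* at 19.7 ± 0.101 and *Slc32a1* at 10.9 ± 1.16 to *Slc6a13* at 3.92 ± 0.0457 RPKM. *Abat* and *Gad1* did not differ beyond the spread of the controls, and each other pair of neighbours was apart in both controls. In the *Ash1L* shRNA samples the order was *Gabbr1* at 109 ± 3.72, *Gabbr2* at 38.5 ± 0.808, *Gad1* at 32.1 ± 2.35, *Abat* at 31.5 ± 4.84, *Gad2* at 28.2 ± 6.75, *Slc32a1* at 11.7 ± 2.24, *Slc6a11* at 10.5 ± 3.42 and *Slc6a13* at 2.11 ± 0.447 RPKM. *Slc6a11* and *Slc32a1* had traded places in the means, although their values overlapped in the treated samples (8.04 and 12.9 RPKM for *Slc6a11* against 10.1 and 13.2 RPKM for *Slc32a1*), as did those of *Gad1*, *Abat* and *Gad2*.

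Taken by cell class, the mean of the neuronal genes overlapped between groups and that of the glial genes was lower after the shRNA. The mean log2 CPM of the 5 neuronal genes was 7.68 and 7.58 in the controls and 7.50 and 7.71 in the treated samples. For the 2 glial genes it was 5.08 and 5.07 in the controls and 4.42 and 3.87 in the treated samples. The glial mean was lowest in the second treated sample, where the neuronal mean was highest. The gap between the classes was 2.60 and 2.51 log2 units in the controls and 3.08 and 3.85 in the treated samples. These class means are a description without a test, and the neuronal class also holds *Gabbr2*, which fell. In bulk tissue, fewer cells of a type and less RNA per cell cannot be told apart.

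**Figure D3:**
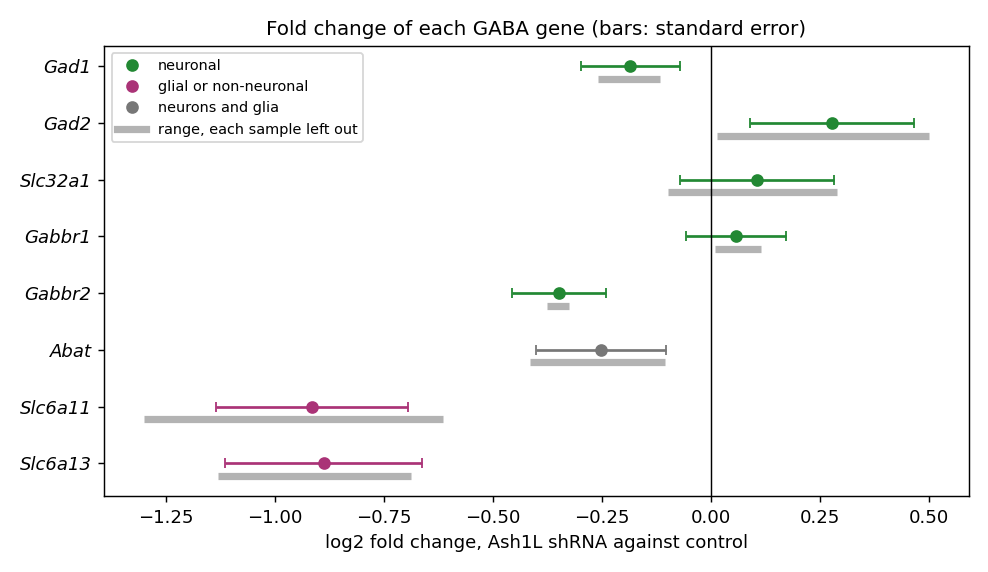
Log2 fold change of each gene, *Ash1L* shRNA over control (x axis), with standard error bars; grey bands give the range with each of the 4 samples left out in turn, and colours the cell class. *Slc6a11* (-0.91) and *Slc6a13* (-0.89) lie farthest below 0, and the bands of *Gabbr2*, *Gad1* and *Abat* also stay below 0, while that of *Slc32a1* crosses it.

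Markers of the cells that carry these genes were read in the same samples. Of 15 astrocyte markers 9 were DOWN and none UP in edgeR and in DESeq2 (beside 8.28% and 8.61% of all genes in edgeR). The median fold change was -0.59 on the log2 scale, and ran from -0.72 to -0.53 with a sample left out. Their summed level was 6070 and 6332 CPM in the controls and 4865 and 3636 CPM in the treated samples. The markers that fell include the connexin genes *Gja1* (-0.99) and *Gjb6* (-0.82), the glutamate transporter genes *Slc1a3* (-0.94) and *Slc1a2* (-0.47), *Fgfr3* (-0.95), *Ntsr2* (-0.94), *Aldoc* (-1.18), *Slc4a4* (-0.71) and *Aldh1l1* (-0.59). *Gfap* was at 0.00 and the water channel gene *Aqp4* at 0.11, and neither was called. *Slc6a11* and *Slc6a13* lay lower than the median astrocyte marker in both treated samples, at -0.62 and -1.30 and at -0.69 and -1.12 log2 units from the control mean, against -0.52 and -0.72 for the marker median.

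Markers of leptomeningeal and vascular fibroblasts, other cells known to express *Slc6a13*, went both ways. Of 12 such genes 1 was DOWN (*Slc22a6*, -1.23) and 2 were UP (*Col3a1*, 1.10, and *Lum*, 0.72), beside 8.28% and 8.61% of all genes. In both treated samples 3 were lower and 3 higher, near the 26.8% and 26.5% of all genes. The median was 0.24. Their sum was 149 and 211 CPM in the controls and 228 and 214 CPM in the treated samples. The median moved between -0.08 and 0.50 with a sample left out, being below 0 without the first control (-0.08) or the first treated sample (-0.07). Among 9 endothelial markers none was called in edgeR or DESeq2 and none had P under 0.05 in edgeR (median 0.06). The part of the astrocyte and leptomeningeal marker levels in the 2 transporter results was not tested.

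Among markers of cortical interneurons, the cells that make GABA here, several fell. Of 17 such genes 6 were DOWN and none UP in edgeR, beside 8.28% and 8.61% of all genes, with a median of -0.52. In DESeq2 these counts were 8 and 0, where 1282 of all genes were DOWN and 1243 UP. In both treated samples 10 were lower and 0 higher, beside 26.8% and 26.5% of all genes. The 6 were the genes of parvalbumin (*Pvalb*, -0.90) and somatostatin (*Sst*, -0.62), which mark the main interneuron classes, *Reln* (-0.55), the neuregulin receptor gene *Erbb4* (-0.58), *Adarb2* (-0.62) and the developmental transcription factor gene *Lhx6* (-0.50). Of the others, *Calb2* (0.46), *Sp9* (0.16), *Npy* (0.15) and *Cck* (0.01) lay above 0. The rest, among them *Lamp5* (-0.73) and *Vip* (-0.43), lay below, and none of these was called. With control 1, control 2, treated 1 and treated 2 left out, the median of the list was -0.42, -0.47, -0.51 and -0.36. *Pvalb* and *Reln* were DOWN in each of these fits, while the other genes of the 6 each lost the call in some fit. The summed level of the 17 genes was 1038 and 1060 CPM in the controls and 957 and 708 CPM in the treated samples. Their median stood at -0.36 and -0.51 log2 units in the treated samples, where *Gad1* stood at -0.26 and -0.11, *Gad2* at 0.02 and 0.51 and *Slc32a1* at -0.10 and 0.29. The second treated sample was thus the lowest in the level of these markers and the highest for *Gad2* and *Slc32a1*.

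Projection neurons of the striatum, a neighbouring region, are GABAergic as well and express *Gad1*, *Gad2* and *Slc32a1*. Of 7 markers of these neurons that were read here, 3 were UP in edgeR (*Drd2*, 1.29, *Rgs9*, 0.96, and *Pde10a*, 0.31) and none DOWN. These counts stood beside 8.61% and 8.28% of all genes, and were 4 and 0 in DESeq2. The median was 0.63. Their summed level was 200.5 and 181 CPM in the controls, 233 CPM in the first and 318 CPM in the second treated sample. *Rgs9* was at 18.0 and 22.2 CPM in the controls and at 27.2 and 51.5 CPM in the treated samples, *Ppp1r1b*, which encodes the dopamine signalling protein DARPP-32, at 35.7, 35.5, 37.2 and 72.9 CPM in that order, and the enkephalin gene *Penk* at 46.0, 33.8, 47.2 and 81.7 CPM. The second treated sample stood highest for each of these, but not for the whole list: *Pde10a* was at 84.6 and 73.5 CPM in the controls and at 102 and 94.6 CPM in the treated samples, highest in the first, and the tachykinin gene *Tac1*, at 12.9, 12.1, 14.5 and 8.88 CPM in that order, was lowest in the second. *Drd2* was the least counted of the 3 UP genes, at 0.921 and 0.969 CPM in the controls and at 1.42 and 3.28 CPM in the treated samples. The calls of *Drd2*, *Rgs9* and *Pde10a* were each lost without either control. With a sample left out the median of the list stayed above 0, at 0.25 to 1.03. Pan-neuronal markers summed to 7614 and 7635 CPM in the controls and to 7119 and 6370 CPM in the treated samples, with none of 10 called or at P under 0.05 in edgeR and 1 DOWN in DESeq2. No marker of any list tested was at 0 in a sample. The part of these neuron markers in the *Gad1*, *Gad2* and *Slc32a1* values was not tested.

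**Figure D4:**
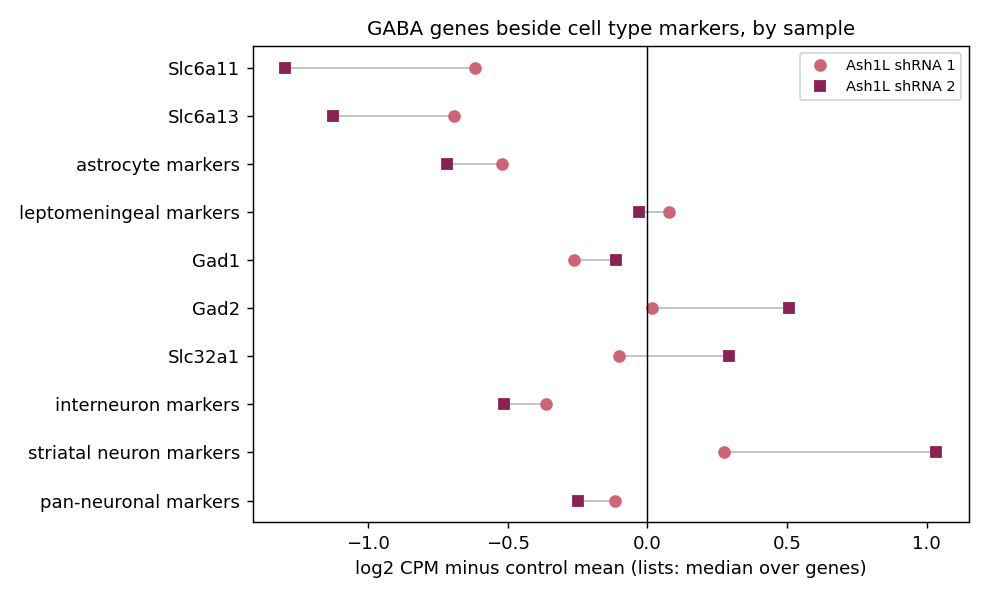
Level of 5 of the genes and of 5 marker lists (median over genes) in each *Ash1L* shRNA sample, as log2 CPM minus the control mean (x axis). Astrocyte markers lie below 0 with *Slc6a11* and *Slc6a13* in both samples. In sample 2 *Gad2* (0.51) and *Slc32a1* (0.29) lie above 0 with the striatal markers, while *Gad1* (-0.11) and the interneuron markers lie below.

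Other genes of the GABA cycle were read from 4 lists with 30 genes, all tested. Of these 9 were DOWN and 1 UP, beside 8.28% and 8.61% of all genes, 17 were lower in both treated samples and 4 higher in both, beside 26.8% and 26.5%, and the median was -0.18. These counts changed with a sample left out, as did the counts over all genes.

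In the list of glutamate and glutamine supply and of a side route to GABA, 4 of 10 genes were DOWN and 1 UP. These stood beside 8.28% and 8.61% of all genes. The glutamine synthetase gene *Glul*, an astrocyte enzyme, was at 1818 and 1660 CPM in the controls and at 1308 and 680 CPM in the treated samples (-0.81 ± 0.30 SE), and its call was lost without either control, with fold changes from -1.36 to -0.41 as each sample was left out. *Glud1*, the gene of glutamate dehydrogenase, was at 249 and 236 CPM in the controls and at 175 and 133 CPM in the treated samples (-0.66 ± 0.16), and was DOWN with each sample left out. Both genes had both treated samples below both controls and the second lowest, the order seen in *Slc6a11*. The glutamine exporter gene *Slc38a3* (-0.34 ± 0.11) and *Maob* (-0.42 ± 0.17), whose enzyme takes part in the side route from putrescine to GABA, fell as well, each call being lost without either control or without the second treated sample. The neuronal glutamine importer gene *Slc38a2* rose (0.59 ± 0.23), from 160 and 133 CPM to 171 and 270 CPM, a call also lost in these 3 fits. The importer gene *Slc38a1* was at 0.20 ± 0.13 and not called. The list went both ways: its median was 0.16, and -0.09 without the second control or -0.21 without the first treated sample, while its summed level was 2667 and 2397 CPM in the controls and 2083 and 1500.3 CPM in the treated samples.

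Of 2 genes of later breakdown and of the cofactor pyridoxal phosphate, which GAD and GABA transaminase both need, *Pdxk* fell. Its enzyme, pyridoxal kinase, makes the cofactor, and it was at 124 and 120 CPM in the controls and at 96.4 and 86.1 CPM in the treated samples (-0.42 ± 0.11 SE), the call being lost without the first control. *Aldh5a1*, which encodes succinic semialdehyde dehydrogenase, the enzyme after GABA transaminase, was at -0.25 ± 0.13, uncalled and lower in both treated samples. None of 3 related carriers was called in edgeR or DESeq2, or had P under 0.05 in edgeR: the taurine carrier gene *Slc6a6* was at -0.16 ± 0.15, the creatine carrier gene *Slc6a8* at 0.17 ± 0.16, and the betaine and GABA carrier gene *Slc6a12*, at 1.13 to 2.04 CPM, at 0.53 ± 0.38.

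Of 15 partners of the GABA-B receptor 4 were DOWN and none UP in edgeR (5 and 0 in DESeq2). These stood beside 8.28% and 8.61% of all genes in edgeR, and the median was -0.24. The 4 were *Gnao1*, the gene of the Go protein alpha subunit (-0.52 ± 0.16 SE), *Kcnj9*, a subunit gene of the GIRK potassium channel that the receptor opens (-0.99 ± 0.29), *Gnb5* (-0.70 ± 0.28), whose protein pairs with RGS proteins that shorten the response, and *Kctd16* (-0.41 ± 0.16), an auxiliary subunit gene. *Kcnj9* was at 146 and 156 CPM in the controls and at 99.3 and 52.9 CPM in the treated samples, with the second much the lower, whereas *Gabbr2* was nearly equal in both. The other GIRK subunit genes *Kcnj3* (-0.37 ± 0.19) and *Kcnj6* (-0.11 ± 0.11) and the most counted G protein gene, *Gnb1* (-0.35 ± 0.15), were not called. The median of this list was -0.21, -0.19, -0.31 and -0.14 with control 1, control 2, treated 1 and treated 2 left out. Without the second control *Kcnj9* and *Gnb5* lost the call, without either control *Gnao1* and *Kctd16*, and without the second treated sample *Gnb5* and *Kctd16*.

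**Figure D5:**
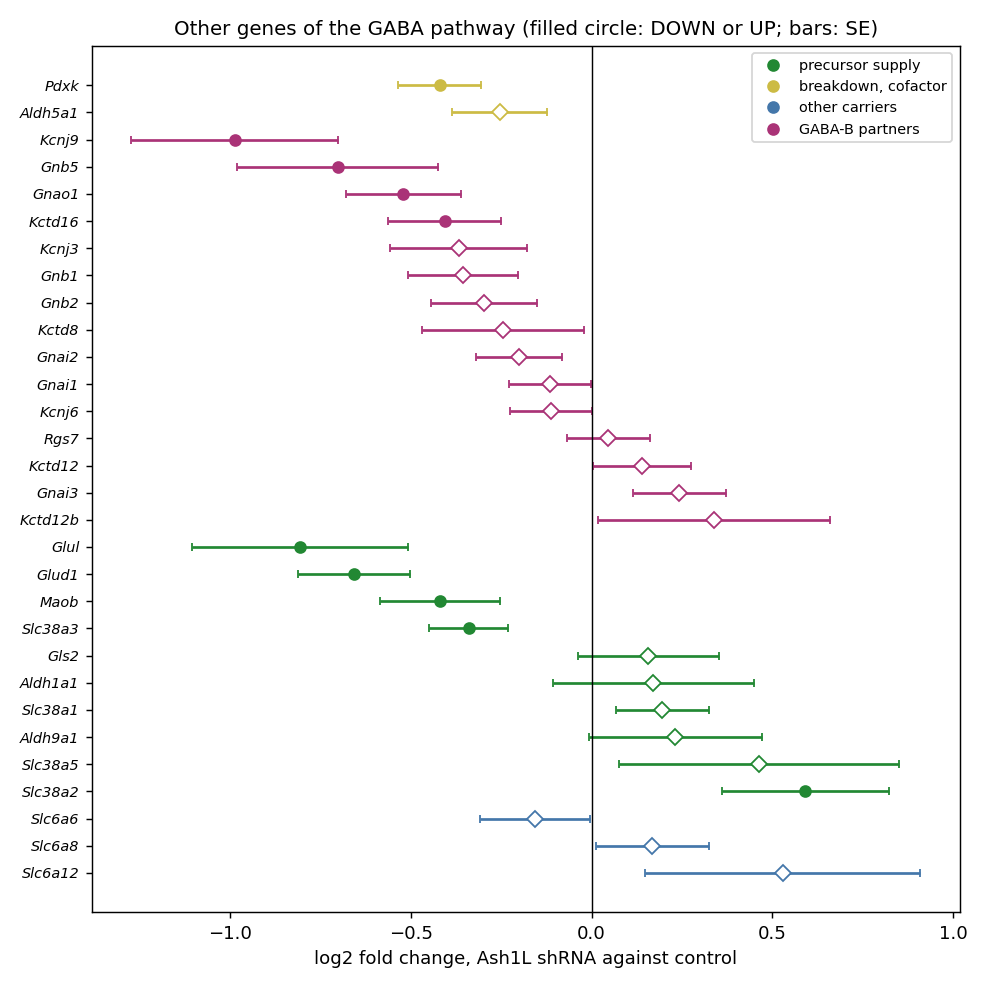
Log2 fold change, *Ash1L* shRNA over control (x axis), with standard error bars for 30 other genes of GABA supply, breakdown, transport and GABA-B signalling; filled circles are DOWN or UP, open diamonds are neither. The 9 DOWN genes run from *Kcnj9* (-0.99) to *Slc38a3* (-0.34), and *Slc38a2* (0.59) is the only UP gene.

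For each of the 8 genes, the genes most like it over the 4 samples were found by the Euclidean distance between log2 CPM profiles centred on their means, among 10498 genes of at least 10 mean CPM (10499 for *Slc6a13*). *Slc6a13* came nearest to 2 of the astrocyte markers above, *Slc1a3* (distance 0.071) and *Fgfr3* (0.075), followed by *Parm1* (0.076). *Slc6a11* came nearest to *Foxp4* (0.104), *Sfxn5* (0.113) and *Fcho1* (0.130). *Gad1* was nearest to *Nrg3* (0.0078), *Gad2* to *Stox2* (0.043), *Slc32a1* to *Yy1* (0.014), *Abat* to *Lime1* (0.042), *Gabbr1* to *BC005561* (0.012) and *Gabbr2* to *Lxn* (0.0066). With 4 samples, near profiles are many, and no other member was among the 3 nearest of any.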

How the data were processed

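RNA-seq of PFC was analysed for 4 samples, 2 per group by their labels. The authors mapped reads to mm10 by RNA STAR and used featureCounts, and deposited unnormalized raw counts for each gene symbol. The labels describe Cutadapt and TopHat2 instead. Strand and multiple-mapping settings are not given in the sources used here. Counts per sample were 14251190 and 35764874 (control) and 27479339 and 20106708 (*Ash1L* shRNA). Replicates differed beyond counting error (chi-square per degree of freedom 15.5 and 44.6).

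Counts were filtered with filterByExpr, TMM-scaled and tested by robust quasi-likelihood in edgeR 4.0.16 (R 4.3.3), with Benjamini-Hochberg adjustment over 16232 genes. Every P and adjusted p of a gene comes from this test unless DESeq2 1.42.0 is named. P-values measure the spread between these pools. Pair ratios used two-sided exact permutation tests over 6 pairs of genes. Lengths and positions are from GENCODE for GRCm38, with 21785 of 23420 symbols matched. Promoter stretches are from RefSeq, in a table that held all members but *Abat*.

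The members, lists and tests were chosen with earlier results of these data known. Named are all members, *Ash1l*, the genes of each list that were called or most counted, and the nearest profiles. Some genes of GABA signalling and of the marker and pathway lists are not reported here, and counts over lists leave them out. Same-numbered samples deviated with a correlation of -0.101, so numbers were not taken as pairs. Alternatives were other scalings, filters, tests and fold limits, a replicate block, and each sample left out.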

Additional observations from a re-analysis of the deposited data

How the results depend on the processing

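The log2 fold changes of the 8 genes were recomputed under 13 alternatives each, and 98 of 104 values kept their direction and their side of the threshold. The 6 that did not all left out 1 sample. *Gabbr2* lost its call without control 1 (-0.36) and control 2 (-0.33), *Gad2* was UP without treated sample 1 (0.50), *Abat* was DOWN without treated sample 2 (-0.41), and *Slc32a1* turned to -0.0076 without control 2 and to -0.10 without treated sample 2, where leaving out a sample gave -0.10 to 0.29. The cause was not tested. With a sample left out, the lone sample of a group is assumed to vary like the other group. The members DOWN then numbered 2 to 4 and UP 0 to 1, the pathway genes DOWN 2 to 15 and UP 0 to 3, and all genes DOWN 306 to 2718 and UP 423 to 2368. At a 1.5-fold limit 491 genes were DOWN and 765 UP, against 1344 and 1397, with 2 members and 4 pathway genes DOWN, as a higher limit admits fewer genes. With the replicate number as a block, *Slc6a11* was at -0.96, *Slc6a13* at -0.91 and *Gabbr2* at -0.35, 3 members were DOWN and 0 UP, and 7 pathway genes were DOWN and 0 UP. No call of a member changed with the block, which left 1020 genes DOWN and 1052 UP. The crossed pairing, added after the data were seen, gave 1736 and 1541 genes, 3 and 0 members, and 12 and 1 pathway genes DOWN and UP. Other scalings moved the median of all genes by at most 0.041. Depth limits *Slc6a13* most, at 108 counts in treated sample 2.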

Other observations

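Microglial markers, which belong to none of the comparisons above, differed most between the *Ash1L* shRNA samples. The summed level of 10 such genes was 984 and 1016 CPM in the controls, 1362 CPM in the first and 528 CPM in the second treated sample, and their median log2 deviation from the control mean was 0.45 and -0.84. The treated samples stood on opposite sides of the controls, and none of the 10 genes was called in edgeR or DESeq2 or had P under 0.05 in edgeR. The median log2 fold change of the list was 0.45 without the second treated sample and -0.85 without the first. Excitatory cortical neuron markers had 5 of 10 genes DOWN, beside 8.28% of all genes, with a median of -0.40. The median ran from -0.65 to -0.25 with a sample left out, and the genes called changed. *Fezf2*, the transcription factor gene of deep-layer projection neurons, was DOWN in each of these fits (-0.85). *Nrn1*, at 0.14, was higher in both treated samples, and *Cux2* was at -0.05, neither being called. Of 10 oligodendrocyte markers 1 was DOWN, *Opalin*, near the 8.28% of all genes, with a median of -0.19.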
